A study of Mus musculus with 16 samples.

Results

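The genes described here are 10 genes of microbial sensing in the mouse colon: the Toll-like receptor genes Tlr1, Tlr2, Tlr3, Tlr4 and Tlr5, the adaptor gene Myd88, and the genes of the Nlrp6 inflammasome, Nlrp6, Pycard, Casp1 and Il18. They were chosen by name from the 45513 genes counted, with earlier results of these data known. All 10 were among the 15841 with enough counts to be tested. RNA was sequenced from the colon of 8 adult Atoh1(WT)CreERT2; Rosa26tdTom/+ mice, males and females of C57BL/6 background and homozygous for the Atoh1 allele, each of which gave 1 library of EpCAM+ tdTom+ cells and 1 of EpCAM+ tdTom- cells. CreERT2 is made from the Atoh1 locus, downstream of its coding sequence, so that tamoxifen (1 mg per day on 3 days by the labels and by the methods for this comparison, although the passage on RNA sequencing describes a single larger dose and collection a day later) switched on tdTomato in Atoh1-expressing secretory cells, which keep the label along with their progeny. All mice carried the same alleles and received tamoxifen, the control is the unlabelled population of the same colon, and no unlabelled or untreated mice enter the comparison. EpCAM+ tdTom- cells are a mixture of absorptive colonocytes, stem cells and other epithelial cells and not a single cell type. Mice are numbered 1 to 8 in the order of the numbers in the sample labels.

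Toll-like receptors recognise microbial products, TLR2 as a partner of TLR1 or TLR6 for lipoproteins, TLR3 double-stranded RNA in endosomes, TLR4 lipopolysaccharide and TLR5 flagellin. All of these except TLR3 signal through the adaptor MyD88 to NF-kB. NLRP6 is a cytosolic sensor of the intestinal epithelium that assembles with ASC, the product of Pycard, to activate caspase-1, which matures IL-18. In the colon this set of genes is known from work on sentinel goblet cells at the crypt opening, which take up TLR ligands and, through MyD88 and NLRP6, trigger release of Muc2 mucin from neighbouring goblet cells.

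The 250 bases upstream of Nlrp6 and of Casp1 are shown. Nlrp6 had the smallest p of the 10 in the fit without a mouse term. Casp1 is its partner, whose difference was the most even among the mice. RefSeq and the deposited files place the starts of both at the same base, and no annotated exon falls in these windows. The sequences are those of RefSeq on GRCm38.p6, for Nlrp6 chr7:140920652-140920901 on the plus strand and for Casp1 chr9:5298267-5298516 on the plus strand. Capitals mark the only motif match.

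Nlrp6: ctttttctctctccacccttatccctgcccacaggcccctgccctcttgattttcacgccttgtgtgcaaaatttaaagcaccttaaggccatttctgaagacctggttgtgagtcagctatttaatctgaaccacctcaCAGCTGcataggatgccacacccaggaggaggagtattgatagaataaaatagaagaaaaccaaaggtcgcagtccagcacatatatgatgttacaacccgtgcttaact
Casp1: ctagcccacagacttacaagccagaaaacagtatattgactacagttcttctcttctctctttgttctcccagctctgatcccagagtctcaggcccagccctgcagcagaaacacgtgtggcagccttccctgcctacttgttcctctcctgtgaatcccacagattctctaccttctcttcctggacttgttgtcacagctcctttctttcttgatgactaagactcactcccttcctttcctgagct

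Both strands were searched for the E-box form CAGCTG, read by basic helix-loop-helix proteins, for a kappaB form, GGGNNTTCC, for an HNF4A form, CAAAGTCCA, and for an interferon response form, GAAANNGAA. The Nlrp6 window held the E-box at -110 from the start and no other of these forms, and the Casp1 window held none. Of 32851 upstream windows of the same length, 13.0% held the E-box, 4.98% the kappaB form, 0.38% the HNF4A form and 7.13% the interferon form. The window of Tlr5 held none of the 4, and that of Pycard, which overlaps an exon of Gm45205, held the E-box. RefSeq places the starts of Tlr2 and Myd88 inside the deposited gene, and the windows there held the kappaB form 2 times for Tlr2 and the interferon form for Myd88. RefSeq also places the starts of Tlr1 and Tlr3 inside the deposited gene, and that of Il18 20573 bases upstream of it. The windows of Tlr1, Tlr3 and Il18 held none of the 4, and Tlr4 had no entry. A match describes the letters and is not a binding site.

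Total counts ranged from 16482530 to 24218367 in tdTom+ and from 18318172 to 45791503 in tdTom- libraries, where mouse 4 was the largest and no other exceeded 20668605. The smallest count of any of the 10 genes was 83, for Tlr5. All 8 goblet cell markers examined, with Atoh1 and Muc2 among them, were higher in tdTom+ cells and all 8 absorptive colonocyte markers lower. Goblet markers summed to 2226 to 8653 CPM (counts per 1e6 with TMM-normalised library sizes) in tdTom- and to 49131 to 102910 CPM in tdTom+ libraries, so that the tdTom- population was not free of them. Markers of other cells were examined by the test given below, by which 25.5% of all genes tested were lower in tdTom+ cells. Lower in tdTom+ cells were 6 of 6 enteroendocrine markers (sums of 281 to 748 CPM against 1364 to 3992 CPM), 3 of 5 tested of 6 tuft markers (47.5 to 99.5 against 87.7 to 142 CPM) and 5 of 7 tested of 8 stem cell and proliferation markers (490 to 743 against 628 to 1053 CPM). Of 12 immune markers 8 had too few counts to be tested, Cd4 had none in any library, and 2 of the other 4, Ptprc and Cd68, were lower in tdTom+ cells, with sums of 7.04 to 13.4 CPM against 11.7 to 39.8 CPM. Of 7 markers of stroma and endothelium 3 were tested and 2 were lower, with sums of 7.46 to 15.5 CPM against 11.8 to 24.2 CPM. In the paired fit given below 28.9% of all genes tested were lower. There the lower markers were 6 enteroendocrine, 4 tuft, 7 stem cell and proliferation, 3 immune and 2 of stroma and endothelium. The part of any of these cells in the differences below was not tested.

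In tdTom+ cells 7 of the 10 genes were lower (Tlr1, Tlr2, Tlr5, Nlrp6, Pycard, Casp1 and Il18), 1 was higher (Tlr3), and Tlr4 and Myd88 did not pass the threshold. The test was edgeR's quasi-likelihood test over all genes at a Benjamini-Hochberg adjusted p of 0.01, by which 25.5% of all genes tested were higher and 25.5% lower. Their median log2 fold change was -0.80, beside 0.0039 over all genes tested. A paired fit, blocked by mouse, gave each of the 10 genes the same call, where 28.4% of all genes were higher and 28.9% lower. Libraries of bulk RNA cannot tell fewer cells of a type from less RNA per cell, and this holds for every difference given here.

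**Figure D1:**
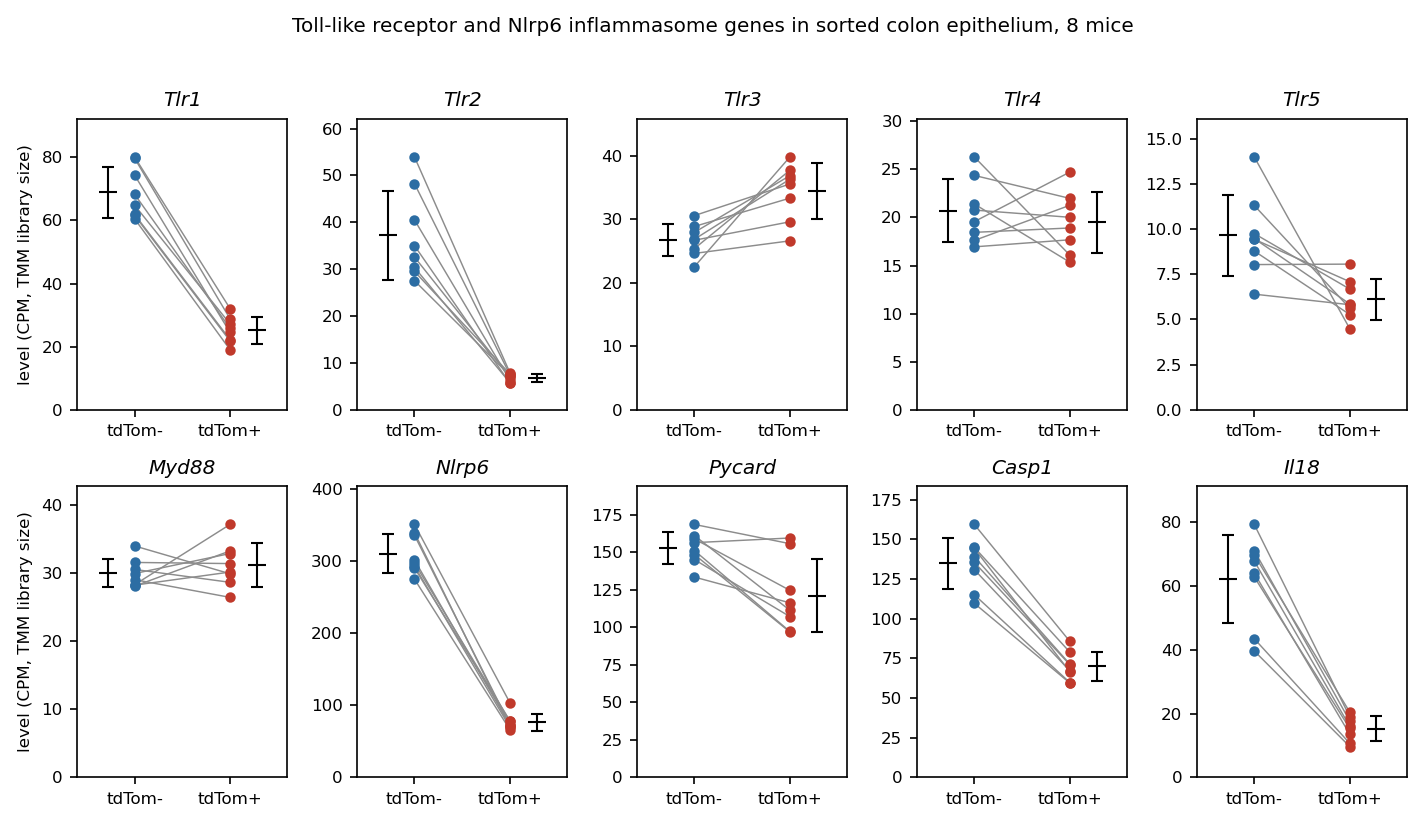
Level of each gene in CPM (vertical axes from 0, scaled separately) in tdTom- and tdTom+ cells, with lines joining the libraries of a mouse and bars for the mean and SD of 8 mice. The populations do not overlap for Tlr1, Tlr2, Nlrp6, Casp1 and Il18, and overlap for the other 5 genes. The share of all genes tested whose populations do not overlap was not counted, here or for overlaps given below.

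Among the receptors, Tlr2 had the largest difference. The gene occupies bases 83836272 to 83841767 of chromosome 3 (GRCm38, minus strand), and all further positions are on the same build. In tdTom+ cells its lowest, median and highest levels were 5.65, 7.16 and 7.91 CPM, and in tdTom- cells 27.5, 33.8 and 53.9 CPM. All 8 tdTom- libraries lay above all 8 tdTom+ libraries. The means were 6.89 ± 0.867 and 37.2 ± 9.54 CPM (SD, n = 8), a 5.40-fold lower level in tdTom+ cells (log2 fold change -2.43, standard error 0.14, adjusted p = 2.78e-12, edgeR). Within mice the log2 difference ran from -2.69 in mouse 2 to -1.84 in mouse 6. The tdTom- levels of mice 1 to 3, whose label numbers form a series of their own, were 40.5 to 53.9 CPM, above the 27.5 to 35.0 CPM of mice 4 to 8, whereas the tdTom+ levels of these mice interleaved.

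Tlr1 (chromosome 5, 64924679 to 64933563, minus strand), the partner of Tlr2 for triacylated lipoproteins, was lower by a smaller factor. The lowest, median and highest tdTom+ levels of Tlr1 were 19.1, 25.2 and 32.1 CPM, against 60.5, 66.6 and 80.1 CPM in tdTom- cells. The populations did not overlap, and the difference was negative in 8 of 8 mice, from -1.64 to -1.24. The fitted log2 fold change of Tlr1 was -1.45 (standard error 0.10, adjusted p = 3.64e-11, edgeR), or 2.73-fold lower. Of the 50-base stretches of Tlr1, 15.4% also occur in other genes, mostly in Tlr6, and reads from them could have been lost or misplaced. Tlr6, the other partner of Tlr2, fell in the same direction, from 7.79 ± 0.603 CPM in tdTom- to 5.05 ± 0.944 CPM in tdTom+ cells (SD, n = 8; log2 fold change -0.62, adjusted p = 3.87e-05, edgeR). Reads from the stretches shared with Tlr1 could be misplaced in Tlr6 as well. Their part in the difference of Tlr6 was not tested.

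Tlr5 (chromosome 1, 182954788 to 182976044, plus strand), the flagellin receptor, had the lowest level per gene length of the 10 genes in both populations. Its lowest, median and highest levels were 4.50, 5.84 and 8.06 CPM in tdTom+ against 6.40, 9.45 and 14.0 CPM in tdTom- cells. These ranges overlapped, and Tlr5 was lower in the tdTom+ library of 7 of 8 mice, mouse 7 being the exception with a log2 difference of 0.0042. The fold change was -0.66 on the log2 scale (standard error 0.14, adjusted p = 3.83e-04, edgeR). Mouse 2 had the largest difference, -1.54.

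Tlr4 (chromosome 4, 66827584 to 66930284, plus strand), which senses lipopolysaccharide with Ly96 (MD-2) and Cd14, showed no difference past the threshold. Levels were 15.4, 19.5 and 24.7 CPM (lowest, median and highest) in tdTom+ cells and 16.9, 20.2 and 26.3 CPM in tdTom- cells. The ranges nearly coincided, with 4 mice higher and 4 lower in tdTom+ cells. Its log2 fold change came to -0.08 (standard error 0.11, adjusted p = 0.52, edgeR), and without mouse 2 it was 0.018 (adjusted p = 0.89). Its co-receptors Cd14 (38.2 ± 4.78 against 34.4 ± 4.81 CPM) and Ly96 (4.76 ± 0.644 against 3.95 ± 0.648 CPM) did not pass the threshold either.

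Tlr3 (chromosome 8, 45395665 to 45410608, minus strand), the endosomal receptor for double-stranded RNA, was the exception among the receptors. Its lowest, median and highest levels were 26.6, 36.0 and 39.8 CPM in tdTom+ against 22.6, 26.8 and 30.6 CPM in tdTom- cells. The ranges overlapped, but Tlr3 was higher in the tdTom+ library of 8 of 8 mice, by 0.11 in mouse 3 to 0.81 in mouse 1 on the log2 scale. The fitted log2 difference was 0.37 (standard error 0.080, adjusted p = 4.44e-04, edgeR), which is 1.29-fold. Of the 50-base stretches of Tlr3, 5.30% also occur in Gm45542, a gene annotated in GENCODE M21. No gene overlaps Tlr3 in the annotation of the deposited files.

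Myd88 (chromosome 9, 119335934 to 119341411, minus strand), the adaptor shared by the surface receptors, did not pass the threshold. Levels were 26.4, 30.8 and 37.1 CPM (lowest, median and highest) in tdTom+ cells and 28.1, 29.5 and 34.0 CPM in tdTom- cells. The tdTom- range lay inside the tdTom+ range, with 4 mice on each side. The fitted log2 difference was 0.06 (standard error 0.065, adjusted p = 0.44, edgeR). Myd88 overlaps Slc22a14 on its own strand and Acaa1a on the opposite strand, and 7.42% of its 50-base stretches also occur in Acaa1a.

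Nlrp6 (chromosome 7, 140920902 to 140929192, plus strand, directly downstream of the sequence shown above), the sensor of the inflammasome, was lower in every mouse. In the fit without a mouse term Nlrp6 had the smallest p of the 10 genes. The lowest, median and highest levels were 66.1, 72.7 and 103 CPM in tdTom+ against 275, 299 and 351 CPM in tdTom- cells. The populations lay far apart, and the highest tdTom+ value, that of mouse 4, stood apart from the other 7, which reached at most 78.3 CPM. Means were 76.3 ± 11.7 and 310 ± 27.6 CPM (SD, n = 8), a 4.07-fold lower level in tdTom+ cells (log2 fold change -2.02, standard error 0.085, adjusted p = 3.34e-14, edgeR). Within mice the difference ran from -2.28 in mouse 2 to -1.76 in mouse 4. Blocked by mouse, the adjusted p of Nlrp6 was 5.62e-15 and that of Il18 was smaller, 2.09e-15 (edgeR).

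Pycard (chromosome 7, 127992103 to 127993867, minus strand) encodes ASC, the adaptor that joins NLRP6 to caspase-1. Its levels were 96.9, 114 and 159 CPM (lowest, median and highest) in tdTom+ cells and 133, 154 and 168 CPM in tdTom- cells. The ranges overlapped through mice 2 and 3, whose tdTom+ libraries held 156 and 159 CPM. Pycard was lower in the tdTom+ library of 7 of 8 mice, with a log2 fold change of -0.34 (standard error 0.096, adjusted p = 0.0049, edgeR) and of -0.36 when blocked by mouse (standard error 0.069, adjusted p = 1.99e-04, edgeR). The call without the block was lost when mouse 4, 5, 6, 7 or 8 was left out, with adjusted p of 0.0144 to 0.0239. Of its 50-base stretches, 11.7% also occur in other genes annotated in GENCODE M21, nearly all in Gm45205. No gene overlaps Pycard in the annotation of the deposited files.

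Casp1 (chromosome 9, 5298517 to 5307265, plus strand, next to the window shown above), the protease that the inflammasome activates, was lower in every mouse. The lowest, median and highest levels were 59.5, 69.1 and 85.7 CPM in tdTom+ against 110 (109.6), 137 and 159 CPM in tdTom- cells. The populations did not overlap, and the log2 difference within mice stayed between -1.11 and -0.87. The fit gave a log2 fold change of -0.95 (standard error 0.084, adjusted p = 4.04e-09, edgeR), or 1.93-fold lower in tdTom+ cells.

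Il18, the cytokine matured by caspase-1, lies on chromosome 9 from 50575273 to 50581837 in the deposited files, on the plus strand. Its lowest, median and highest levels were 9.68, 15.7 and 20.5 CPM in tdTom+ against 39.6, 65.9 and 79.2 CPM in tdTom- cells. The populations did not overlap, and mice 4 and 1 had the lowest levels of both. The fitted log2 difference was -2.02 (standard error 0.16, adjusted p = 6.35e-10, edgeR), and when blocked by mouse its standard error was 0.054 (log2 fold change -2.03, adjusted p = 2.09e-15). Within mice the difference ran from -2.20 to -1.74. The gene model in the deposited files holds 714 bases, and RefSeq starts the gene 20573 bases upstream of it, so that reads from that part were not counted for Il18 here.

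**Figure D2:**
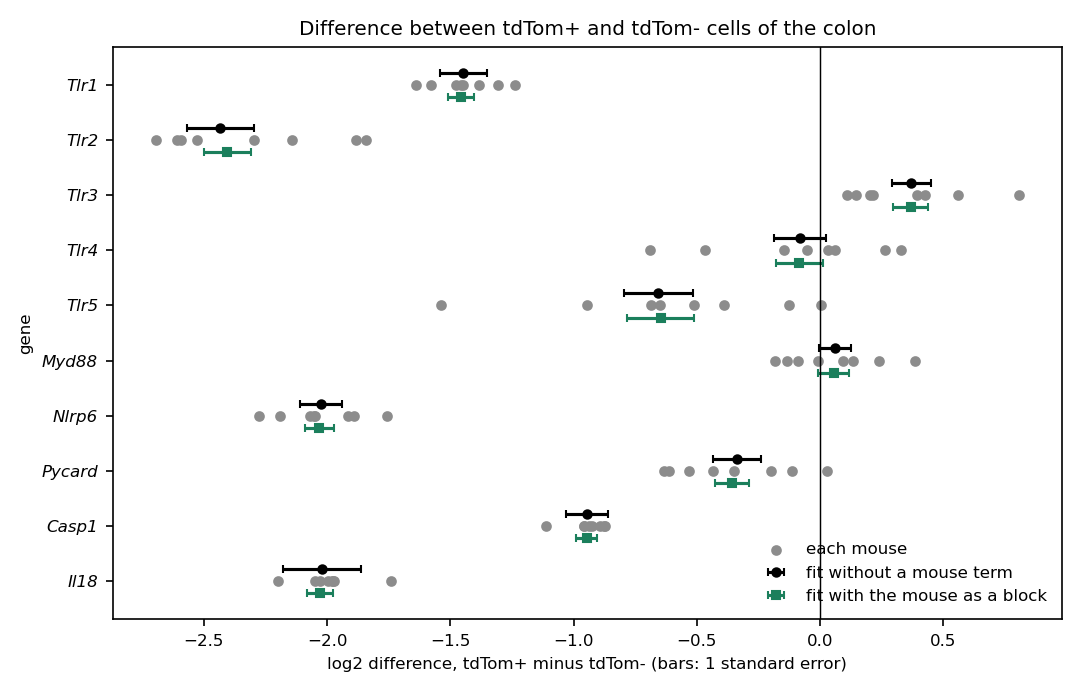
Log2 difference between tdTom+ and tdTom- cells (horizontal axis) for each gene, with grey points for the 8 mice, black circles for the fit without a mouse term and green squares for the paired fit blocked by mouse, bars giving 1 standard error. Tlr2, Nlrp6 and Il18 lie near -2 or below, and Tlr4 and Myd88 have mice on both sides of 0.

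The label numbers fall into 3 series, mice 1 to 3, mouse 4 and mice 5 to 8, which the labels do not explain. Each gene was fitted within the first and the last of them, and mouse 4 alone gives no test. Nlrp6 (-2.18 in mice 1 to 3 and -1.98 in mice 5 to 8), Il18 (-1.91 and -2.09), Casp1 (-0.90 and -0.98), Tlr1 (-1.58 and -1.36) and Tlr2 (-2.71 and -2.21) passed the threshold in both series. Tlr3 was at 0.38 in mice 1 to 3 (adjusted p = 0.0631, edgeR) and at 0.32 in mice 5 to 8 (adjusted p = 0.0013). Tlr5 was at -0.99 in mice 1 to 3 (adjusted p = 0.0088) and at -0.41 in mice 5 to 8 (adjusted p = 0.0183), short of the threshold. Pycard was at -0.08 in mice 1 to 3 (adjusted p = 0.66) and at -0.50 in mice 5 to 8 (adjusted p = 9.86e-05). The differences between the series were not tested.

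Levels of the genes were set against each other as CPM per kb of the gene length in the deposited files. In tdTom- cells the order by mean level was Pycard (109 ± 7.71 CPM per kb, SD, n = 8), Casp1 (90.0 ± 10.9), Il18 (87.1 ± 19.2), Nlrp6 (61.1 ± 5.42), Tlr1 (20.6 ± 2.43), Tlr2 (12.3 ± 3.17), Myd88 (11.6 ± 0.794), Tlr3 (6.08 ± 0.575), Tlr4 (3.72 ± 0.590) and Tlr5 (2.01 ± 0.470). The inflammasome genes stood above all receptors in these cells. From Pycard down to Nlrp6 the range of each gene overlapped that of the next, although Pycard was above Casp1 in 8 of 8 mice. Tlr2 and Myd88 overlapped too, and Tlr2 was above in 3 of 8 mice.

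In tdTom+ cells the order was Pycard (86.2 ± 17.3 CPM per kb), Casp1 (46.8 ± 6.0), Il18 (21.5 ± 5.37), Nlrp6 (15.0 ± 2.31), Myd88 (12.1 ± 1.27), Tlr3 (7.85 ± 1.00), Tlr1 (7.54 ± 1.26), Tlr4 (3.51 ± 0.566), Tlr2 (2.29 ± 0.288) and Tlr5 (1.28 ± 0.234). Ranges overlapped between Il18 and Nlrp6, Nlrp6 and Myd88, and Tlr3 and Tlr1. Tlr3 was above Tlr1 in 3 of 8 mice, although its mean was higher. Tlr2 stood below Tlr4 in 8 of 8 tdTom+ libraries. Per kb, Nlrp6 reached 0.12 to 0.26 of the level of Pycard in tdTom+ and 0.50 to 0.70 of it in tdTom- libraries, so these ratios did not overlap. Myd88 was at 4.13 to 6.89 times the level of Tlr2 per kb in tdTom+ and at 0.70 to 1.27 times in tdTom- libraries.

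**Figure D3:**
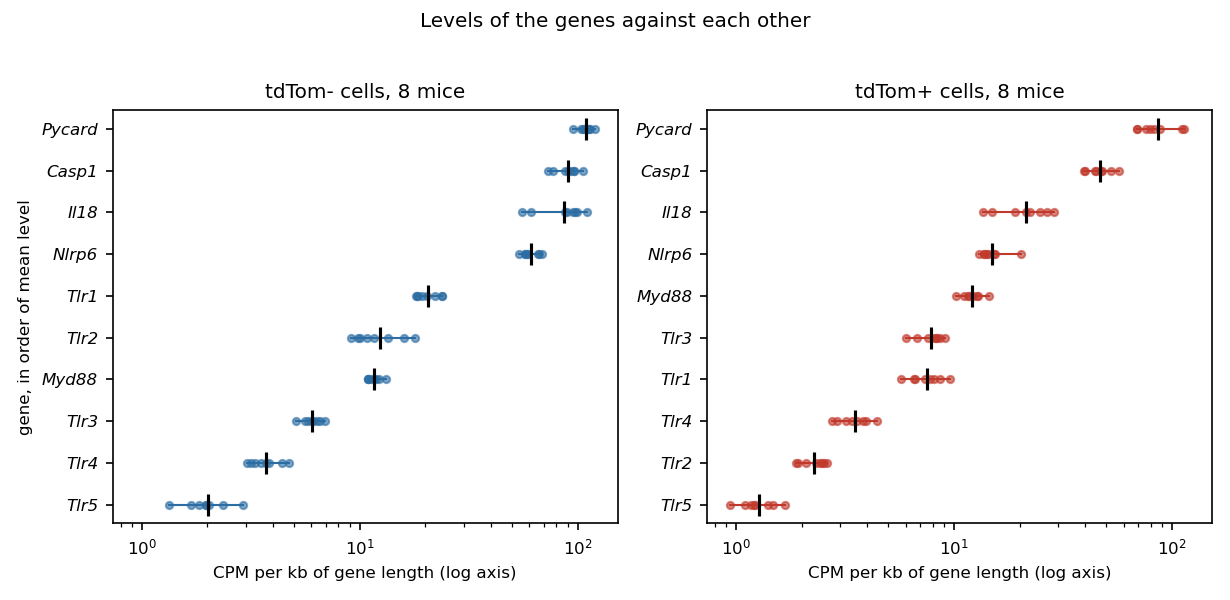
Level per gene length (CPM per kb, log axis) of the 10 genes in tdTom- and tdTom+ cells, in order of the mean, with points for the 8 libraries and black ticks for the mean. Pycard is highest and Tlr5 lowest in both, whereas Tlr2 stands sixth in tdTom- and ninth in tdTom+ cells.

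The pattern of Nlrp6 over the 16 libraries was compared with that of every other gene tested, as Pearson's r of log2 CPM. Most alike were Hunk (r = 0.9957), Hsd3b3 (0.9955), Ank (0.9952), Vdr (0.9948) and Mpzl2 (0.9945), which were also lower in tdTom+ cells, from -1.31 for Vdr, the vitamin D receptor gene, to -3.30 for Hsd3b3. Both populations enter r, so that a difference between them in the same direction as that of Nlrp6 raises it and one in the opposite direction lowers it. Among the other genes described here Tlr2 was nearest to Nlrp6 (r = 0.976, place 190 of 15840), followed by Tlr1 (0.941), Casp1 (0.917) and Il18 (0.906). Tlr5 (0.762), Pycard (0.657), Tlr4 (0.143) and Myd88 (-0.235) came next, and Tlr3, the gene that was higher in tdTom+ cells, was last (-0.745, place 12708).

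The wider pathway was followed through 7 lists with 108 genes, of which 85 had enough counts. Of these 17 were higher and 31 lower in tdTom+ cells, beside the 25.5% of all genes in each direction given above. Blocked by mouse, 20 were higher and 32 lower, beside 28.4% and 28.9% of all genes. The block changed the counts given below only for the adaptors and kinases and for the other inflammasome sensors and partners. In the list of TLR receptors and co-receptors 7 of 16 were tested, and 3 were higher and 1 lower, with a median log2 fold change of 0.27. The 3 encode chaperones and carriers of Toll-like receptors, Hsp90b1 (gp96; 0.76, adjusted p = 3.50e-07), Cnpy3 (0.40, adjusted p = 2.49e-04) and Unc93b1 (0.23, adjusted p = 0.0067, edgeR), which were higher in 8 of 8 mice each. Hsp90b1 is also a general chaperone of the endoplasmic reticulum. Without a mouse term, the call of Unc93b1 was lost when mouse 3, 5, 6 or 7 was left out (adjusted p of 0.0112 to 0.0185). It was also lost with plain library sizes (0.18, adjusted p = 0.0652). Blocked by mouse, with all mice, the adjusted p of Unc93b1 was 3.24e-04 (edgeR). Tlr7, Tlr8, Tlr9, Tlr12 and Tlr13 had too few counts to be tested, and Tlr11 had none in any library.

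Of 20 adaptors and kinases downstream of the receptors, all tested, 3 were higher and 5 lower, with a median of -0.04. Blocked by mouse, 4 were higher and 6 lower. Irak2, a kinase that sustains MyD88 signalling, fell most, from 41.4 ± 6.28 CPM in tdTom- to 12.2 ± 1.33 CPM in tdTom+ cells (SD, n = 8; log2 fold change -1.76, adjusted p = 1.75e-12, edgeR). Tbk1 (-0.41) and Irak4 (-0.40) followed, without overlap of the populations. Peli2, a ubiquitin ligase that acts on IRAK proteins, averaged 35.0 ± 4.05 CPM in tdTom+ against 17.7 ± 2.57 CPM in tdTom- cells (log2 fold change 0.98, adjusted p = 5.72e-09, edgeR). Tab1 (0.23) and Map3k7 (0.19), which encode the TAK1 complex, passed narrowly without a mouse term. Blocked by mouse, their adjusted p were 6.36e-04 and 0.0032 (edgeR). Without the block their calls were lost with plain library sizes (adjusted p of 0.0822 and 0.1392). The call of Tab1 was also lost without mouse 1, 3, 5, 6 or 7 (0.0102 to 0.0244). That of Map3k7 was lost without mouse 1, 4, 5, 6, 7 or 8 (0.0105 to 0.0325). Map3k7 also missed the threshold with no filter on low counts (adjusted p = 0.0112, edgeR) and with at least 10 counts required in every library (adjusted p = 0.0104, edgeR).

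Among 13 negative regulators of the pathway 10 were tested, and 3 were higher and 2 lower, with a median of 0.08. Irak3, which encodes the inhibitory kinase homologue IRAK-M, had the largest positive difference of all lists. Irak3 averaged 21.1 ± 2.41 CPM in tdTom+ against 1.89 ± 0.643 CPM in tdTom- cells (SD, n = 8; log2 fold change 3.48, standard error 0.15, adjusted p = 6.24e-14, edgeR). Sigirr, an inhibitory receptor of the IL-1 family, was also higher without overlap (0.55, adjusted p = 1.29e-07), as was Nlrx1, a mitochondrial NLR protein, with overlap (0.32, adjusted p = 0.0020), which did not pass with plain library sizes (0.27, adjusted p = 0.0157). Tnfaip3 (A20), at -1.04, and its partner Tnip1, at -1.0, both of which limit and are induced by NF-kB, were lower in 8 of 8 mice.

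The list with the most called genes held the NF-kB and IRF factors, where 15 were tested, 2 were higher and 10 lower, with a median of -0.48. Irf7, an interferon-induced regulator of type I interferon genes, fell from 149 ± 44.4 CPM in tdTom- to 18.9 ± 2.85 CPM in tdTom+ cells (SD, n = 8; log2 fold change -2.98, adjusted p = 6.55e-13, edgeR). Nfkbiz (-1.56) and Relb (-1.20) were lower too, without overlap. The 2 higher genes were Nfkbie, an inhibitor of NF-kB (0.87, adjusted p = 1.81e-04), and Nfkb2 (0.34, adjusted p = 0.0015, edgeR).

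Other inflammasome sensors and partners numbered 17, of which 13 were tested, 1 was higher and 5 were lower, with a median of 0.05. Blocked by mouse, 3 were higher, Naip2 and also Nlrp10 and Naip5, which are named after their values were seen, and 5 were lower. Nlrp9b, an intestinal sensor of the NLR family, had the largest negative difference of all lists, with 1.69 ± 0.854 CPM in tdTom+ against 60.0 ± 17.4 CPM in tdTom- cells (SD, n = 8; log2 fold change -5.14, standard error 0.24, adjusted p = 1.63e-13, edgeR). Naip1 (-1.61) and Nlrp1b (-1.03) were lower in 8 of 8 mice. Naip2, a receptor for parts of bacterial secretion systems, was at 0.20 (adjusted p = 0.0030, and 0.0018 when blocked by mouse, edgeR). Without the block, its call was lost without mouse 7 (adjusted p = 0.0116) and with plain library sizes (0.15, adjusted p = 0.0409). The Naip genes and Nlrp9b have close paralogs, between which the counting could have divided reads, so these values are uncertain. Nlrp3, the best known inflammasome sensor of myeloid cells, had too few counts to be tested.

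Of 17 genes of the inflammatory caspases, gasdermin D and the IL-1 family 10 were tested, and 1 was higher and 6 were lower, with a median of -0.71. Il1rn, the natural antagonist of the IL-1 receptor, fell from 49.8 ± 9.18 CPM in tdTom- to 13.9 ± 2.33 CPM in tdTom+ cells (SD, n = 8; log2 fold change -1.84, adjusted p = 2.27e-11, edgeR). Casp12 was lower at few counts, with 0.50 ± 0.099 against 1.40 ± 0.666 CPM (-1.51, adjusted p = 1.61e-04), and Casp4, the mouse caspase-11 gene for intracellular lipopolysaccharide, was lower without overlap (-1.04). Il1r1, the IL-1 receptor gene, was the 1 higher gene (0.47, adjusted p = 1.41e-04). Gsdmd, the pore-forming substrate of caspase-1, which falls outside the rule for named genes and is given after its value was seen, was at 59.9 ± 4.62 against 119 ± 16.6 CPM (-0.99, adjusted p = 5.07e-10, edgeR).

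All 10 cytosolic sensors were tested, of which 4 were higher and 2 lower, with a median of 0.06. Zbp1, a sensor of Z-form nucleic acids (1.04, adjusted p = 7.96e-08), Nod2 (0.94, adjusted p = 1.07e-05) and Nod1 (0.45, adjusted p = 4.88e-05), sensors of peptidoglycan fragments, were higher in 8 of 8 mice each. Mb21d1, which encodes the DNA sensor cGAS (-0.40, adjusted p = 0.0042), and Ifih1, which encodes the RNA sensor MDA5 (-0.31, adjusted p = 4.91e-05, edgeR), were lower. In the fit without a mouse term, the call of Mb21d1 was lost without mouse 1, 3, 4 or 6, with adjusted p of 0.0107 to 0.0243. Blocked by mouse, with all mice, the adjusted p of Mb21d1 was 0.0038 (edgeR). These lists were written with earlier results of these data known, and their counts are descriptions.

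**Figure D4:**
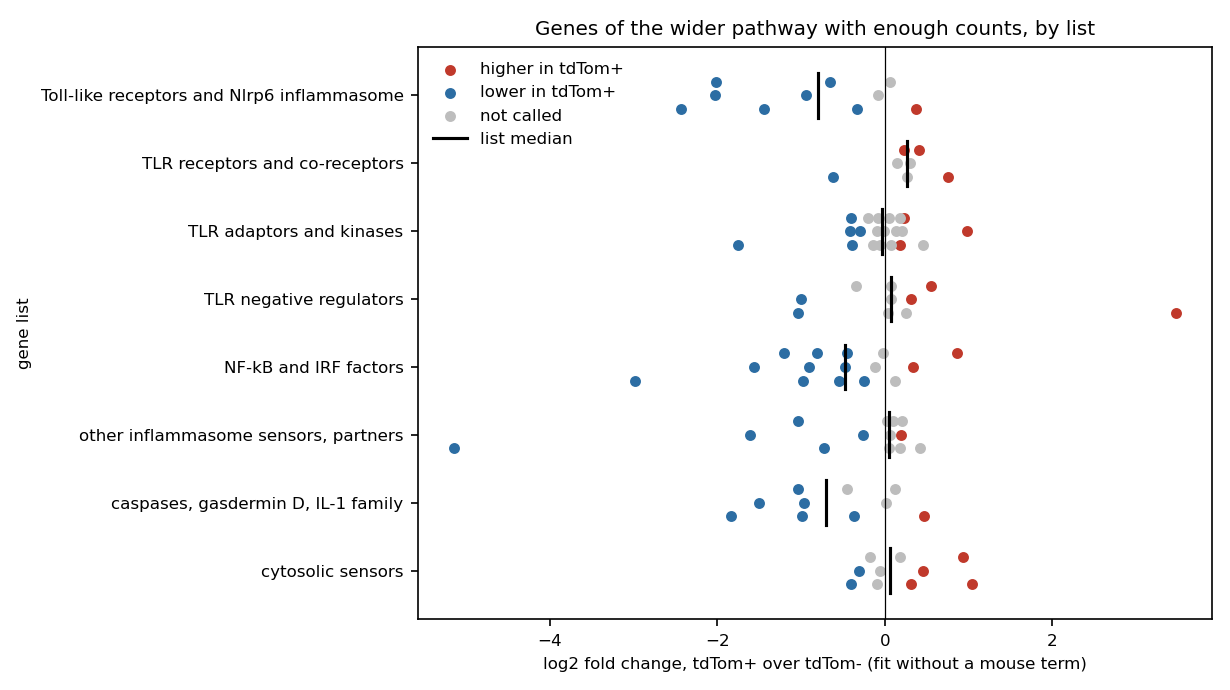
Log2 fold change of tdTom+ over tdTom- cells (horizontal axis) for every tested gene of the 10 described here and of the 7 pathway lists, 1 point per gene, red for higher, blue for lower and grey for not called at an adjusted p of 0.01, with a black line for the median. Irak3 at 3.48 and Nlrp9b at -5.14 are the outermost points.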

How the data were processed

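From stranded mRNA libraries the authors mapped single-end reads with TopHat2 2.1.1 onto GRCm38 and deposited, for each of the 16 colon libraries, unnormalised counts of reads per gene on exons. Per the file headers, featureCounts 1.5.0-p1 counted primary alignments on the reverse strand, whereas the submitters' processing notes name Subread 1.5.2. The annotation release is not given in the sources used here. Symbols were matched through GENCODE M21 for 44585 of 45513 genes. Groups and mouse numbers came from the labels. Small intestinal samples and samples of mutant mice are not analysed here.

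All genes were fitted together with edgeR 4.0.16 (R 4.3.3; filterByExpr, TMM, glmQLFit and glmQLFTest) without a mouse term, and p-values were adjusted by Benjamini-Hochberg over 15841 genes, with a threshold of 0.01. Standard errors follow from each log2 fold change and its F statistic. Log2 CPM used a prior count of 2, and differences within mice log2(CPM + 0.5). The fits were tested on simulated counts. These were drawn without a mouse effect, so they could not show how either fit handles libraries paired by mouse. The mouse numbers pair libraries of the same animal: deviations from the group means correlated within mice at 0.223 to 0.408 across genes, and at most at 0.168 between mice. No 2 libraries of a group agreed within sampling noise (chi-square per degree of freedom at least 11.7).

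Alternatives comprised a block for the mouse, RLE normalization or plain library size, DESeq2 1.42.0, no filter or at least 10 counts in every library, an adjusted p of 0.05, each mouse left out, and the mice of 1 number series only. DESeq2 with the mouse as a block was added after seeing the data. From each list, up to 3 called genes with the largest and up to 3 with the smallest log2 fold change are named. For the gene with the smallest p without a mouse term, the 5 genes most like it are named. The genes described and all lists were chosen with earlier results of these data known. Upstream sequences came from RefSeq on GRCm38.p6, which holds no entry for Tlr4 in the table used. The motif forms were chosen after the data were seen. Stretches of 50 bases shared between genes were counted in the transcripts of GENCODE M21. Python 3.11.15 with pandas 2.3.3 was used for summaries.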

Additional observations from a re-analysis of the deposited data

Results flagged for a closer look

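Of 86 groups of 8 libraries examined for a library far from the others, 3 held one, where about 4.3 are expected by chance. Nlrp6 was at 6.693 log2 CPM in the tdTom+ library of mouse 4, against 6.048 to 6.293 in the other tdTom+ libraries, and without mouse 4 its call was kept. Nod2 was at 2.759 log2 CPM in the tdTom- library of mouse 4, the largest library, against 1.686 to 2.119 in the others. Zbp1 was at 3.645 log2 CPM in the tdTom- library of mouse 6, against 2.722 to 3.159. The cause of these values was not tested.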

How the results depend on the processing

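Of 180 values that the log2 fold changes of the 10 genes took under 18 alternatives, 171 kept both sign and call. The alternative with an adjusted p of 0.05 reused the fit without a mouse term. It could change no sign and lose no call, here or for the pathway genes below. Blocked by mouse, the paired fit changed no call among the 10 genes (Nlrp6 -2.03, Il18 -2.03, Tlr3 0.37). With mice 1 to 3 only, 0 of the 10 genes were higher (Tlr3 0.38 and Pycard -0.084 missed the threshold), and 6 pathway genes and 2546 of all genes were higher and 2559 of all genes lower. That fit holds fewer mice, and the cause was not tested further. With mice 5 to 8 only, Tlr5 (-0.41) missed it. With plain library sizes, which moved the median of all genes to -0.048, 11 pathway genes were higher, against 17 with TMM, while of all genes 3354 were higher and 4159 lower, against 4032 and 4042. With single mice left out, Pycard ranged from -0.40 to -0.29 and Tlr4 from -0.15 to 0.018, changing sign without mouse 2, and 6 or 7 of the 10 genes were lower. Of 593 values of the named pathway genes 549 kept both, and 44 missed the threshold. At this depth 23 pathway genes had too few counts to be tested.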
